A study of Danio rerio with 6 samples.

Results

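Chromosome 19 of the zebrafish, and within it the stretch from 5 to 10 Mb (GRCz10), was examined for differences in RNA level between wild-type and csf1ra mutant embryos. The members are the 629 genes, of 15475 tested on all chromosomes, whose event rows lie on chromosome 19, carry a gene ID and add up to a total of at least 1 FPKM in at least 3 of the 6 libraries. FPKM is a fragment count scaled by transcript length and by the size of the library. In each library the FPKM of a gene's first exons were summed, likewise those of its last exons, and the larger sum was taken as the gene's total. The chromosome was selected on the differences between genotypes in these totals. Of the 761 genes with event rows on the chromosome, 759 had a total and 130 of these stayed under the threshold. Just inside it were si:ch1073-70f20.1 and si:dkey-222b8.4, whose third-highest totals were 1.01 and 1.04 FPKM, and just outside were lrrc14b and snx13, at 0.978 and 0.969 FPKM.

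The samples were whole embryos at 3 days post fertilisation, with 3 libraries from wild-type fish and 3 from csf1ra-/- mutants, whose allele was generated by CRISPR/Cas9. For the collection the labels give 30 embryos, which can be read as per genotype or per sample, and 1 μg of total RNA went into each library. Whether each library is a clutch of its own is not stated, and p-values therefore reflect only how these samples vary, and that variation may be technical. In whole embryos, fewer cells of a type and less RNA per cell cannot be told apart.

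The mutated gene, csf1ra, whose product is a receptor of macrophages and pigment cells, lies on chromosome 14 and not on chromosome 19. Its total was 4.54, 4.07 and 3.72 FPKM in the wild-type libraries and 0.563 FPKM in mutant replicate 3, and mutant replicates 1 and 2 did not list it. Per library, 17291 to 17653 genes were listed over all chromosomes and 685 to 702 on chromosome 19, whose share of all FPKM was 6.54% to 6.91%. Since read totals are not part of the tables, the depth of each library is unknown. Of 9 markers of whole embryos, 6 had a total, in all 6 libraries, among them mylpfa of fast muscle, krt4 of skin, elavl3 of neurons and tfa of liver. The blood markers hbae1.1 and hbbe1.1 and the lens marker crygm2d2 had none. limma called 0 of the 6 marker genes tested (2 at an unadjusted p under 0.05). The lens marker cryaa differed most, at 19.6, 22.8 and 26.3 FPKM in wild type and 10.1, 16.2 and 16.4 FPKM in the mutant (limma adjusted p = 0.139). For these markers and the lists below, the share of all genes at that unadjusted level is not given.

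As background, vertebrate genomes hold a major histocompatibility complex, in which genes for class I antigen-presenting molecules sit beside genes for peptide transport, for proteasome subunits and for unrelated functions. In zebrafish the core class I part of this complex lies on chromosome 19, and its haplotypes differ between fish in which class I genes they carry. The same chromosome holds several genes of the S100 family of calcium-binding proteins and the hoxaa cluster, whose transcription factors pattern the body axis.

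Chromosome 19 was chosen by differences between these same 6 libraries, so all counts of genotype differences on it are a description and support nothing. limma with adjustment over all 15475 genes called 35 of the 629 members at an adjusted p under 0.05, that is 5.56%, where 2.42% of all genes tested were called. Of the 35, 17 were higher in the mutant and 18 lower, against 1.21% and 1.20% of all genes. The median difference of the members, mutant minus wild type on the log2(FPKM + 1) scale, was 0.0, beside 0.02 over all genes. Among the 25 chromosomes, chromosome 19 had the second-highest share called, after chromosome 25 with 5.68% of 493 genes, and chromosome 14 had 2.0% of 551. The number called on chromosome 19 was 15, 12 and 16 when wild-type replicate 1, 2 or 3 was left out, and 19, 13 and 36 when mutant replicate 1, 2 or 3 was. Over all 15475 genes these refits called 138, 138 and 152, and 145, 133 and 450, against 374 with all libraries. The number thus moved with that over all genes. Of the 36 called without mutant replicate 3, 27 were among the 35. Each of the 35 kept its direction in all 6 of these refits, and 10 were called in all of them. The genotypes did not overlap in the totals of any of the 35, so leaving out 1 library could not turn a direction.

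**Figure D1:**
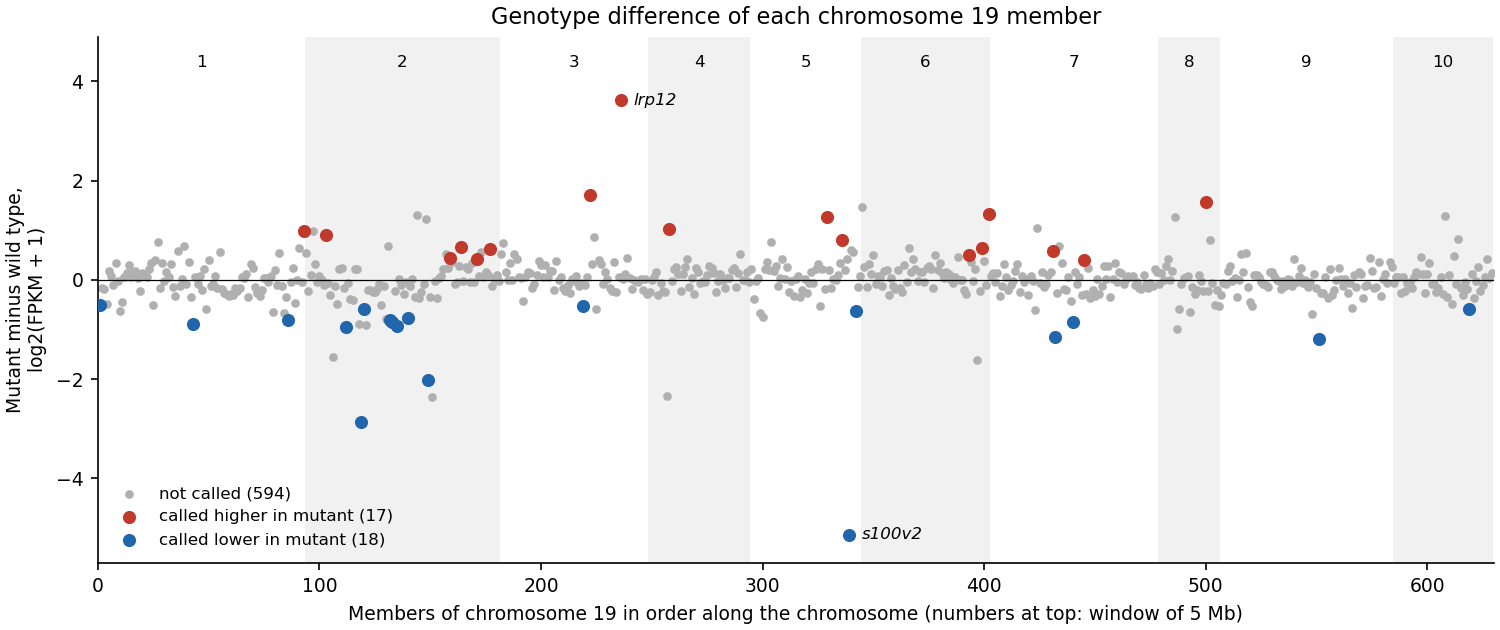
Mutant minus wild-type difference of each of the 629 members on the log2(FPKM + 1) scale (y axis), in order along the chromosome (x axis), with windows of 5 Mb numbered at the top; coloured points passed an adjusted p of 0.05. The called members of window 2 include a run of 8 lower genes, with 1 higher gene before it and 4 after it, and s100v2 and lrp12 lie farthest from 0.

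The called members were unevenly placed along the chromosome. Genes were assigned to windows of 5 Mb by their leftmost event. Positions printed for a gene, and overlaps between genes, are those of its listed events, which may cover only part of the annotated gene. The window from 5 to 10 Mb held 13 called members of 88 (14.8%), 5 higher and 8 lower. In the next highest window, from 20 to 25 Mb, 4 of 50 were called (8.0%). From 30 to 35 Mb the count was 4 of 76, from 25 to 30 Mb 3 of 58, from 10 to 15 Mb 3 of 67 and from 0 to 5 Mb 4 of 93. The windows from 15 to 20 Mb, 35 to 40 Mb, 40 to 45 Mb and 45 to 50 Mb each held 1. Outside 5 to 10 Mb, 22 of 541 members were called (4.07%).

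A looser count, of members whose 3 mutant values all lay above or all below the 3 wild-type values, gave a flatter profile. On chromosome 19 it took in 192 members (30.5%), 99 higher and 93 lower in the mutant, where the share over all genes was 22.3%. The share was 37.5% from 5 to 10 Mb and 38.0% from 20 to 25 Mb, and it lay between 20.0% and 23.1% in the 3 windows beyond 35 Mb. The windows from 5 to 10 Mb and from 20 to 25 Mb were thus near each other in this looser count and apart in called genes.

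**Figure D2:**
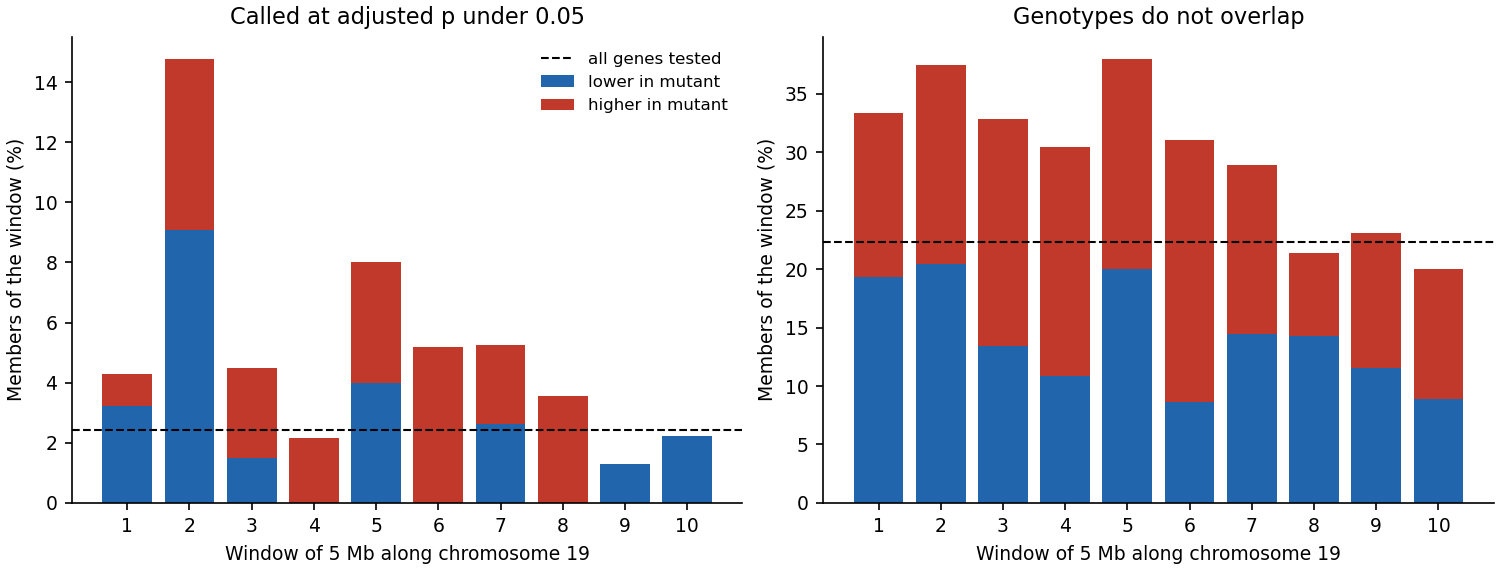
Share of the members of each window of 5 Mb (in percent) that were called (left) or whose genotypes did not overlap (right), split by direction, with the share over all genes tested as a dashed line. Window 2, from 5 to 10 Mb, reached 14.8% called, and windows 2 and 5 were the highest for genotypes that do not overlap.

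Between 5 and 10 Mb the direction changed with position. The 8 members called lower lay between 6130000 and 7799315, and 4 of the 5 called higher lay between 8824335 and 9793605. In bins of 1 Mb, the median difference was -0.03 from 5 to 6 Mb (18 members), -0.4 from 6 to 7 Mb (8 members) and -0.24 from 7 to 8 Mb (34 members), then 0.23 from 8 to 9 Mb (9 members) and 0.1 from 9 to 10 Mb (19 members). Over all genes, 7242 of 15475 had a difference below 0, and the genotypes did not overlap in 12.1% that were higher and 10.2% that were lower in the mutant. From 7 to 8 Mb 29 of the 34 members had a difference below 0, and without overlap of the genotypes 12 were lower in the mutant and 3 higher. From 9 to 10 Mb 14 of 19 had one above 0, and 6 were higher in the mutant without overlap of the genotypes, while 0 were lower. Over the 8 members called lower, the median difference from the wild-type mean was -0.85, -0.92 and -0.86 in mutant replicates 1, 2 and 3. Over the 5 called higher it was 0.53, 0.71 and 0.55. These medians are over called genes, in which the genotypes do not overlap, so every mutant library had to deviate.

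**Figure D3:**
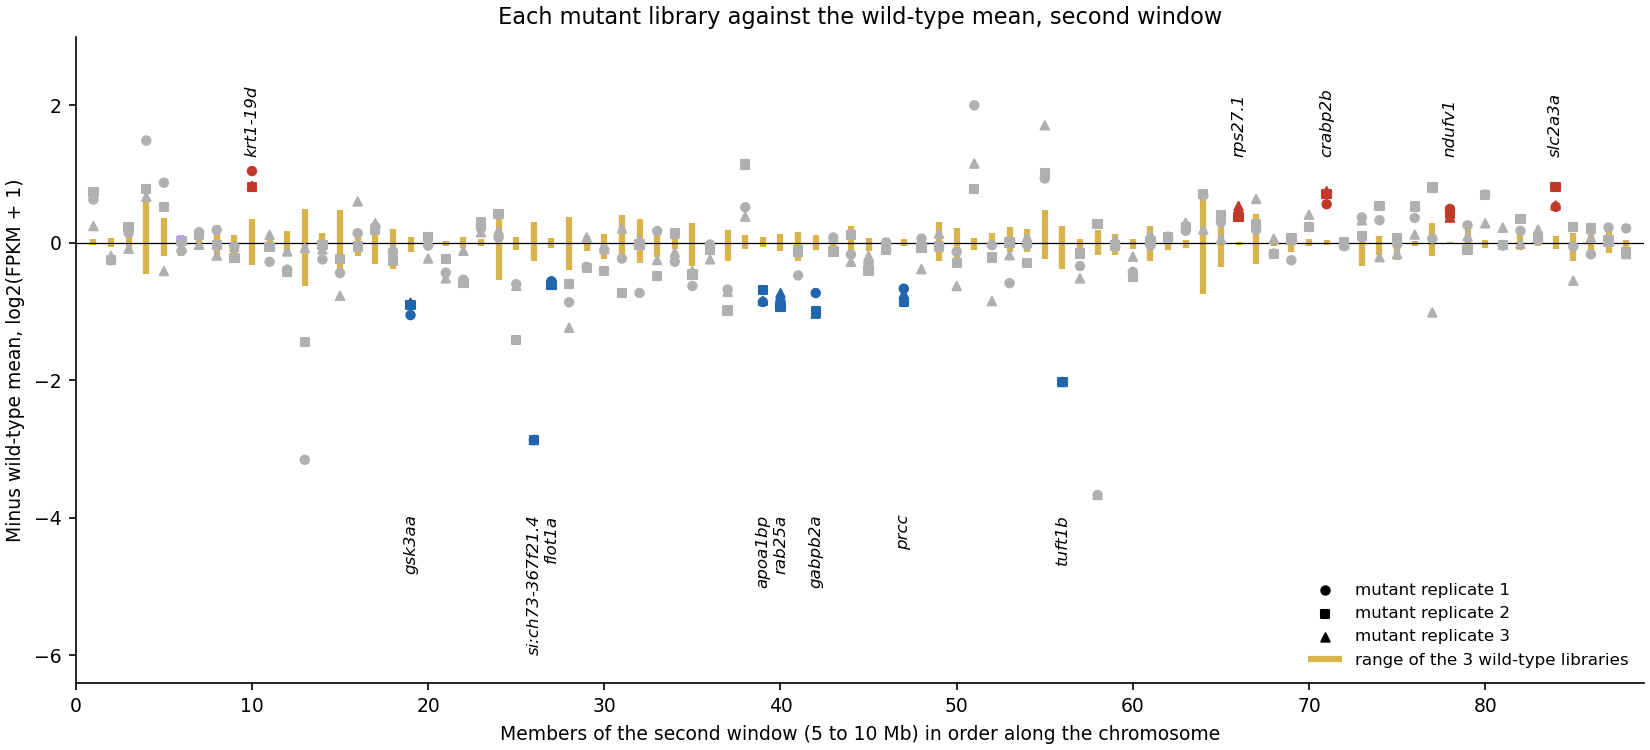
Each mutant library's log2(FPKM + 1) minus the wild-type mean (y axis) for the 88 members from 5 to 10 Mb in order (x axis), with the range of the 3 wild-type libraries as a bar; named genes were called. The 3 mutant libraries lie together for the called genes, where a small spread is part of what makes a call. They lie far apart for a few others, such as hax1, whose 2 lowest points are libraries that did not list its end exons.

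The first called member of the lower run was gsk3aa (6130000 to 6164730, minus strand), which encodes a form of glycogen synthase kinase 3 alpha. It stood at 14.1, 13.7 and 12.0 FPKM in wild type and at 5.87, 6.61 and 6.78 FPKM in the mutant. Every mutant library was below every wild-type library. The difference was -0.94 (SE 0.10, limma adjusted p = 0.00404), and it was called without any 1 library.

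flot1a (7019364 to 7038479, plus strand) encodes flotillin 1, a protein of membrane microdomains, and is a neighbour of the antigen presentation genes. Its level was 36.0, 32.8 and 34.4 FPKM in wild type and 23.0, 22.1 and 22.2 FPKM in the mutant. It fell by 0.59 on the log2(FPKM + 1) scale (SE 0.07, limma adjusted p = 0.00748), with no overlap of the genotypes and the call kept in all 6 refits.

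Farther along, 4 called genes lay within 108 kb, from 7489310 to 7597372, where all 9 members but fam63a had a difference below 0. apoa1bp, which encodes an enzyme that repairs damaged forms of NADH and NADPH, stood at 8.30, 8.46 and 9.33 FPKM in wild type and 4.34, 5.01 and 4.402 FPKM in the mutant (-0.80, SE 0.10, adjusted p = 0.0104, called in all 6 refits). rab25a, a small GTPase gene of epithelial recycling endosomes, stood at 5.63, 5.15 and 6.33 FPKM in wild type, and at 2.71, 2.51 and 3.03 FPKM in the mutant (-0.84, SE 0.12, adjusted p = 0.0179). gabpb2a encodes a beta subunit of GA-binding protein, a transcription factor of the ETS kind. Its values were 5.87, 7.01 and 6.27 FPKM in wild type and 3.45, 2.69 and 2.61 FPKM in the mutant (-0.92, SE 0.13, adjusted p = 0.0155). prcc, which encodes a nuclear protein linked to the mitotic checkpoint in human cells, had 11.1, 10.6 and 10.3 FPKM in wild type and 6.35, 5.43 and 5.97 FPKM in the mutant (-0.76, SE 0.10, adjusted p = 0.00906). Its span overlaps that of lix1l, and the counting of strands is not given in the sources used here. In each of these 4 genes the genotypes did not overlap, and all 3 mutant libraries were low.

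The calls in this stretch differed in how they stood up to leaving out a library. prcc was lost only without wild-type replicate 1, at an adjusted p of 0.05002. gabpb2a was called without mutant replicate 1 or 3 and lost without mutant replicate 2 or wild-type replicate 1, 2 or 3 (adjusted p 0.0506 to 0.0719). rab25a was called only without mutant replicate 3, and its adjusted p was 0.0506 to 0.0711 without each of the other 5 libraries. The genes between the 4 were not called. sf3b4, a splicing factor gene, had a difference of -0.23 and mrpl24, a mitochondrial ribosomal protein gene, of -0.04, both with overlapping genotypes. rfx5, whose product is a regulator of class II antigen presentation in mammals, had 3.76, 4.43 and 4.39 FPKM in wild type and 3.24, 2.92 and 3.54 FPKM in the mutant, which did not overlap and did not pass the test (adjusted p = 0.299).

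The remaining members called lower from 5 to 10 Mb were not listed in any mutant library. si:ch73-367f21.4 (ENSDARG00000071097, 6991459 to 6991638, plus strand), an uncharacterised gene, was at 6.11, 8.01 and 5.06 FPKM in wild type (limma adjusted p = 0.000267, which depends on the 0 entered for a missing listing). tuft1b (7798524 to 7799315, plus strand), a tuftelin gene named for an enamel protein of mammals, was at 3.48, 2.11 and 3.81 FPKM in wild type (adjusted p = 0.00353). Each rests on a single first-exon event. Both passed the filter through wild type alone, so they had to differ. Of the 9 members of the chromosome that passed only through 1 genotype, 6 were called.

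**Figure D4:**
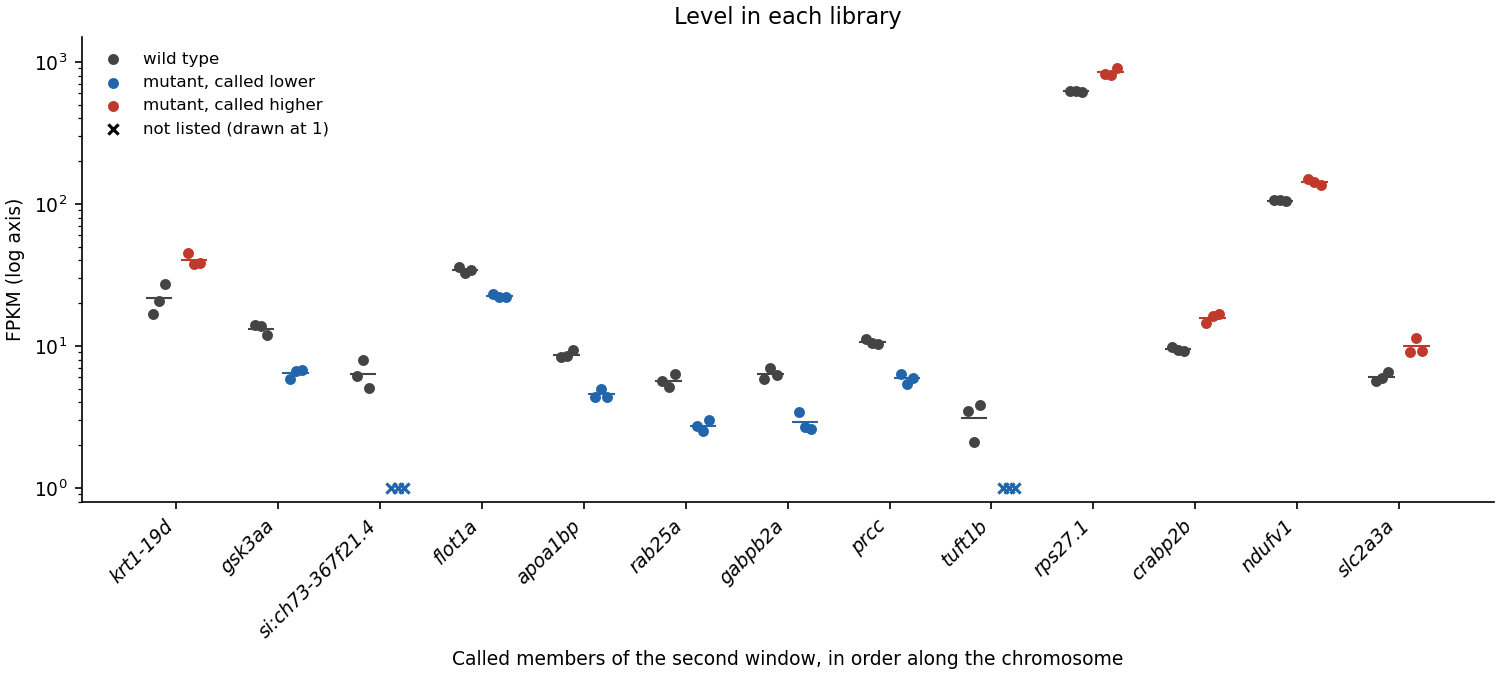
FPKM on a log axis (y axis) in each wild-type and mutant library for the 13 called members from 5 to 10 Mb in order along the chromosome (x axis); horizontal lines are means, and crosses drawn at 1 mark libraries that did not list the gene. The genotypes do not overlap in any of the 13.

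The genes listed in 1 genotype only were also concentrated here. Taking all genes with a total, whether or not they passed the threshold, 10 of 759 on chromosome 19 (1.32%) were listed in all 3 libraries of 1 genotype and in none of the other, where the share over all genes was 0.955%. The share was 7 of 114 from 5 to 10 Mb (6.14%), all 7 of them listed in wild type. They lay between 6991459 and 7998372, a span of 1.01 Mb that held 44 genes with a total. The first and last of the 7 set the ends of this span, so their number within it is fixed. None of the 7 had an event row of any type in the mutant libraries. Besides si:ch73-367f21.4 and tuft1b they were si:ch73-367f21.6, mhc1uba, aqp10b, si:dkeyp-85e10.2 and si:dkey-266f7.1, named after their values were seen. The wild-type values of these 5 ran from 0.0744 FPKM, for aqp10b in replicate 1, to 1.04 FPKM. si:dkey-266f7.1 was at 0.082, 0.197 and 0.106 FPKM. Without read totals no limit of detection can be given for these 5 genes. On the rest of the chromosome lrp12 and bmp8a were listed in the mutant only and si:ch211-149a19.3 in wild type only.

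The antigen presentation genes themselves were near the lower limit of these data. mhc1uba (7153929 to 7182175, plus strand), which encodes a class I heavy chain, was at 0.681, 0.598 and 0.786 FPKM in wild type and was not listed in the mutant. mhc1uka, another class I gene, and psmb9a, a gene of an inducible proteasome subunit, were listed in wild-type replicate 2 alone, at 0.552 and 0.568 FPKM. tapbp.2, which encodes tapasin, a chaperone of class I loading, was listed in wild-type replicate 1 alone, at 1.1 FPKM. These were the 4 genes of the class I list with a total on chromosome 19, and 0 passed the threshold. The summed total of these 4 genes was 1.78, 1.72 and 0.786 FPKM in the wild-type libraries and 0 in all 3 mutant libraries. Over all chromosomes 7 of the 30 genes of that list had event rows, and their sums were 4.57, 7.02 and 2.41 FPKM in wild type and 11.1, 11 and 2.91 FPKM in the mutant. In mutant replicates 1 and 2, but not in replicate 3, most of the sum came from tapbpl, a tapasin-related gene on chromosome 16. It was at 3.58 FPKM in wild-type replicate 2 alone and at 8.54, 9.55 and 0.800 FPKM in the mutant. limma called 0 of the 2 genes of that list tested (0 at an unadjusted p under 0.05).

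Of 21 other antigen presentation genes with a total, all on other chromosomes, 16 were tested and limma called 0 (2 at an unadjusted p under 0.05, median difference 0.0, range -0.92 to 0.29, beside a median of 0.02 over all genes). Immune cell markers were measured beside these genes. The summed level of the 6 macrophage markers with a total was 16.1 to 23.4 FPKM in wild type and 15.3 to 17.1 FPKM in the mutant, with spi1a, a transcription factor gene of myeloid cells on chromosome 25, the 1 called lower of 5 tested. spi1a was at 1.75, 1.80 and 1.38 FPKM in wild type, at 0.489 FPKM in mutant replicate 1 and not listed in the other mutant libraries. It passed the filter through wild type alone, so it had to differ. The macrophage marker marco, which stayed under the filter and was not tested, went the other way. Its total was 0.390, 0.639 and 0.563 FPKM in wild type and 1.23, 1.75 and 0.645 FPKM in the mutant. mpeg1.1 had no total here. The 3 neutrophil markers summed to 54.7 to 61.3 FPKM in wild type and 50.1 to 54.2 FPKM in the mutant (0 of 3 called by limma, 1 at an unadjusted p under 0.05), and of 6 T cell markers only rag1, il7r and lck had a total, none above 0.743 FPKM. The part of these cells in the values of mhc1uba and its neighbours was not tested.

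Of 16 tested members of the list of complex-linked genes on chromosome 19, 1 fell, flot1a, and 0 rose, with 4 at an unadjusted p under 0.05 (median -0.17, range -0.59 to 0.30). Over all genes tested, 2.42% were called. Their share at an unadjusted p under 0.05 is not given here, so the 4 cannot be set against it. rxrba, a retinoid X receptor gene, was at 39.5, 33.2 and 25.3 FPKM in wild type and at 20.5, 23.1 and 23.96 FPKM in the mutant, without overlap (-0.50, SE 0.15, adjusted p = 0.173). The bromodomain gene brd2a (15.5, 24.9 and 18.4 FPKM against 11.2, 18.9 and 19.9) and the cartilage collagen gene col11a2 (85.2, 100.2 and 85.8 FPKM against 74.4, 99.3 and 81.8) overlapped between the genotypes. The first exons of col11a2 alone were at 0.493, 8.42 and 0.317 FPKM in wild type and 27.8, 28.8 and 28.9 FPKM in the mutant, a difference of 3.48 against -0.09 in the total. Of the list members farther along, rps18, slc39a7 and abcf1 also overlapped, with differences of 0.14, -0.16 and 0.19. Others there did not overlap, in either direction, and did not pass. vps52 was at 7.19, 8.37 and 7.98 FPKM in wild type and 6.61, 6.52 and 6.12 FPKM in the mutant (limma adjusted p = 0.268). ddx39b was at 11.98, 10.82 and 10.54 FPKM in wild type and 12.31, 12.98 and 13.56 FPKM in the mutant (adjusted p = 0.313).

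The S100 genes of the chromosome differed among themselves. s100u (7656199 to 7672137) was at 4.09, 4.57 and 4.78 FPKM in wild type and at 20.9, 8.44 and 11.2 FPKM in the mutant. Its genotypes did not overlap, the mutant totals were spread, and it did not pass (1.31, SE 0.28, adjusted p = 0.0648). These totals mix the ends of the gene. Those of wild-type replicate 3 and mutant replicate 2 came from last exons, and the others from first exons. By last exons alone, s100u was at 8.75, 8.44 and 7.27 FPKM in the mutant and, in wild type, at 4.78 FPKM in replicate 3 alone. Its neighbours s100a11 (34.7 ± 6.6 and 27.0 ± 4.8 FPKM, SD, n = 3) and s100s (6.64 ± 0.69 and 5.09 ± 1.7 FPKM) and the more distant s100a10a (20.6 ± 11 and 28.1 ± 5.5 FPKM) overlapped between wild type and mutant. The first exons of s100a10a were listed in only 1 wild-type library, replicate 2, at 10.9 FPKM, and at 31.1, 28 and 15.2 FPKM in the mutant. The fifth S100 gene of the chromosome, s100v2 (24679330 to 24680045, minus strand), was the 1 called of the 5. It stood at 41.1, 38.2 and 41.6 FPKM in wild type, at 0.370 and 0.191 FPKM in mutant replicates 2 and 3, and was not listed in mutant replicate 1. Its total rests on a single last-exon event, and it passed the filter through wild type alone, so it had to differ.

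The members called higher from 5 to 10 Mb had differences of 0.43 to 0.90. rps27.1 (8824335 to 8829646), a gene of the small ribosomal subunit, stood at 624, 626 and 610.3 FPKM in wild type, and at 827, 807 and 899 FPKM in the mutant (0.44, SE 0.07, adjusted p = 0.0192). crabp2b (9054117 to 9061113), which encodes a protein that carries retinoic acid inside cells, was at 9.85, 9.41 and 9.23 FPKM and at 14.5, 16.2 and 16.7 FPKM (0.67, SE 0.09, adjusted p = 0.0104). ndufv1 (9293106 to 9309587), the gene of the NADH-binding subunit of respiratory complex I, was at 106, 106 and 104 FPKM and at 149, 141 and 137 FPKM (0.43, SE 0.06, adjusted p = 0.0192). All 3 were higher in every mutant library than in any wild-type library. crabp2b was lost without mutant replicate 2 or wild-type replicate 2 (adjusted p = 0.0557 and 0.0505). rps27.1 and ndufv1 were called only without mutant replicate 3, with an adjusted p of 0.0523 to 0.0829 and of 0.0711 to 0.081 without each of the other libraries.

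krt1-19d (5408167 to 5416298), a type I keratin gene of skin, lay apart from the others, before the lower run. It was at 16.8, 20.6 and 27.3 FPKM in wild type and at 44.8, 37.9 and 38.4 FPKM in the mutant (0.90, SE 0.16, adjusted p = 0.0405), and was called only without wild-type replicate 3, with an adjusted p of 0.0647 to 0.139 without each of the other libraries. The skin marker krt4, on chromosome 6, was at 2846 to 3121 FPKM in wild type and 2078 to 2898 FPKM in the mutant. Of the keratin genes beside krt1-19d, krtt1c19e had a difference of -0.07 and krt91 of -0.31, and neither passed. Keratin genes are close relatives, so reads may be split between them. In the windows of 5 Mb, ppp1r1b fell just before the border, since it starts at 4996331 and ends at 5045916. It encodes a phosphatase inhibitor of dopamine-responsive neurons and was higher in the mutant (3.40, 3.98 and 5.23 FPKM against 7.74, 10.7 and 9.46, adjusted p = 0.0281). It was lost without mutant replicate 2 or 3 or wild-type replicate 1 or 2 (adjusted p 0.0587 to 0.106).

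The last member called higher, slc2a3a (9766283 to 9793605), which encodes a glucose transporter, depended on which end of the gene was measured. Its total was 5.65, 5.92 and 6.57 FPKM in wild type and 9.13, 11.4 and 9.27 FPKM in the mutant (0.63, SE 0.11, adjusted p = 0.0388), and it was called in none of the 6 refits (adjusted p 0.0504 to 0.131). These values came from its last-exon event. The first-exon event was at 5.65, 0.463 and 6.57 FPKM in wild type and 9.11, 0.519 and 0.233 FPKM in the mutant, so with first-exon events alone the difference was -0.65.

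Other members showed that the total can miss a gene that was measured. hax1 (7880093 to 7886195), whose product protects mitochondria from cell death signals, had totals of 11.6, 10.2 and 13.4 FPKM in wild type and 14.4 FPKM in mutant replicate 2, while mutant replicates 1 and 3 had no first-exon or last-exon event. An event for the same gene with 1 intron removed was listed in all 6 libraries, at 11.6, 10.2 and 13.4 FPKM in wild type and at 18.2, 14.4 and 16.2 FPKM in the mutant. That event was thus higher in the mutant without overlap, where the total gave -2.35 (adjusted p = 0.323). For the keratin gene cyt1l (5435016 to 5452895) the totals were 429.6, 198 and 335 FPKM in wild type and 33.4, 112 and 290.3 FPKM in the mutant. Of its last-exon events, the one that begins at 5452748 was not listed in mutant replicates 1 and 2 and was at 221 FPKM in mutant replicate 3. Its span overlaps that of krt91 on the opposite strand. hax1 and cyt1l were the 2 members from 5 to 10 Mb whose libraries of 1 genotype differed by at least 2 on the log2 scale, of 7 on the chromosome.

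**Figure D5:**
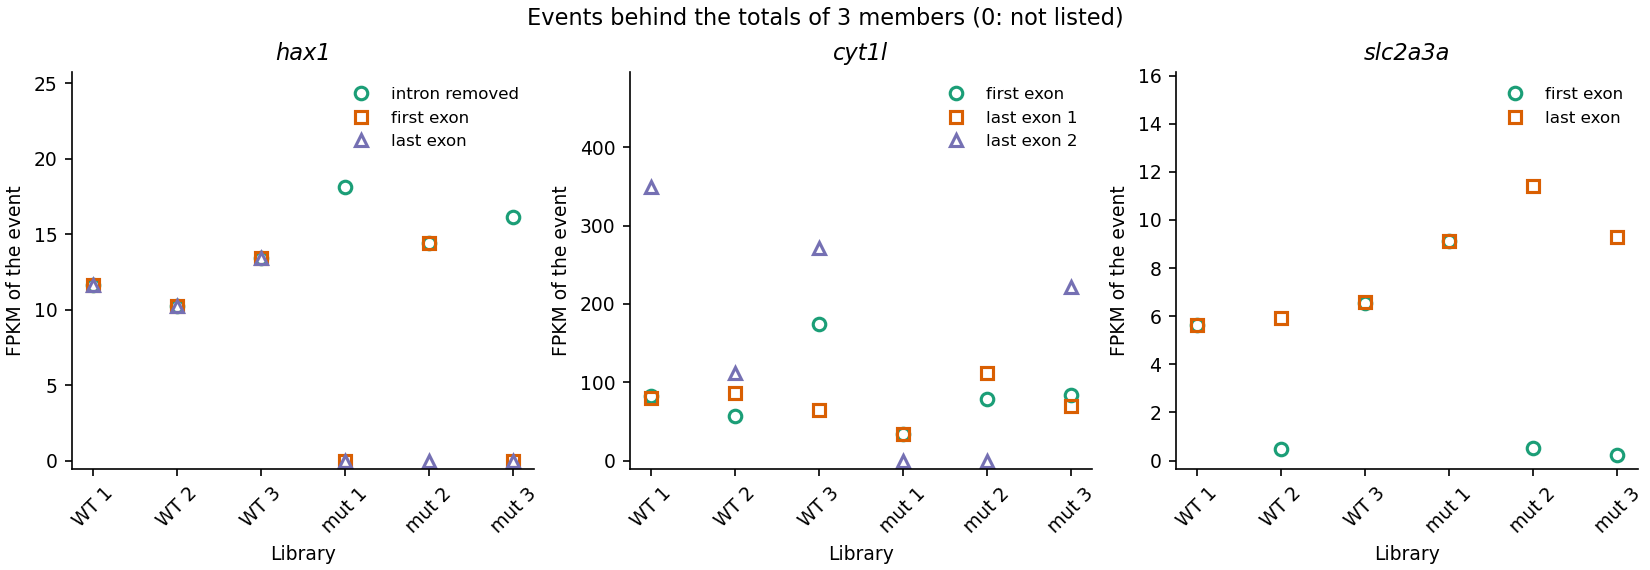
FPKM of single events (y axis) in each library (x axis; WT, wild type; mut, mutant) for hax1, cyt1l and slc2a3a, with 0 where an event was not listed. For hax1 the intron-removed event stays at 14.4 to 18.2 FPKM in the mutant, where only replicate 2 lists the first exon and no library the last, and for slc2a3a first and last exon part ways in 3 libraries.

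Spread within a genotype does not use the difference between genotypes that chose the chromosome, but it enters every limma call. The median SD of log2(FPKM + 1) from 5 to 10 Mb was 0.142 among wild-type and 0.167 among mutant libraries. Over all genes it was 0.138 and 0.147, and over the other members of the chromosome 0.135 and 0.150. Among single events, 15 of 1170 first-exon or last-exon events on chromosome 19 (1.28%) had at least 1 FPKM in all 3 libraries of 1 genotype and no listing in the other, against 0.919% of all events. Of these 15, 11 were listed in wild type and 4 in the mutant. Unlike the spread, these events are themselves genotype differences in the exons that make up the totals, so they are not free of the selection. Events of the called genes si:ch73-367f21.4, tuft1b, lrp12 and map7d1b are among them. Windows 0 to 5 Mb and 5 to 10 Mb held 5 and 4 of the 15, among 169 and 175 events (2.96% and 2.29%). Among the 5 were a pair of first exons of map7d1b, a microtubule-associated protein gene, and 1 of oscp1a, and among the 4 were the last exon of hax1 at 11.6, 10.2 and 13.4 FPKM and a last exon of si:ch211-288g17.4, listed at 3.19, 3.18 and 2.13 FPKM in the mutant.

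Outside 5 to 10 Mb the called members were scattered. lrp12 (13457372 to 13458298, plus strand), a gene of the LDL receptor family, was not listed in wild type and stood at 11.4, 11.1 and 11.5 FPKM in the mutant, from a single first-exon event. grb10a, which encodes an adaptor of insulin and growth factor receptors, was at 1.98, 1.34 and 1.95 FPKM in wild type and at 4.99, 6.09 and 5.81 FPKM in the mutant (1.27, SE 0.15, adjusted p = 0.00607). These values came from its last exons, and with first exons alone the mutant was at 4.4, 3.86 and 2.93 FPKM, the difference was 0.78 and the call was lost. The Rab GTPase gene rab42a was at 3.59, 3.94 and 4.10 FPKM and at 10.4, 7.80 and 8.54 FPKM (1.02, SE 0.13, adjusted p = 0.00807). hey1, a target gene of Notch signalling, was lower in the mutant, at 11.1, 10.7 and 9.55 FPKM against 5.72, 5.09 and 5.15 FPKM (-0.85, SE 0.10, adjusted p = 0.00677). These 4, s100v2 and the 5 named above were the 10 members called without any 1 library. Of the 10, lrp12, s100v2, si:ch73-367f21.4 and tuft1b passed the filter only through the genotype where they were high, so their calls are no sign of stability.

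The other called members were less stable. CR735126.1 rose from 2.12 ± 0.52 to 8.43 ± 2.5 FPKM (SD, n = 3) and was lost only without wild-type replicate 2 (adjusted p = 0.0513). zdhhc3b, a palmitoyltransferase gene, stood at 4.59, 4.60 and 4.62 FPKM in wild type and 2.11, 1.83 and 2.16 FPKM in the mutant, and was called without mutant replicate 1 or 3 but not without the others (adjusted p 0.0501 to 0.0559). znf706, a zinc finger gene, was at 29.2, 11.3 and 16.7 FPKM in wild type and 66.2, 63.3 and 51.7 FPKM in the mutant, and was called only without wild-type replicate 1 (adjusted p 0.0503 to 0.138 without the others). fndc5b, an orthologue of the gene for the precursor of irisin in mammals, was at 0.724, 0.144 and 0.982 FPKM and at 3.52, 2.83 and 2.60 FPKM, and was called only without wild-type replicate 3 (0.0538 to 0.124 without the others). It passed the filter through the mutant alone, so it had to differ. col14a1b, map7d1b, rnf19a and zgc:103438 among the lower genes, and ndufs6 of respiratory complex I and tmem55a among the higher ones, were called only without mutant replicate 3, with an adjusted p of at most 0.159 without the others. Of these, zgc:103438 passed the filter through wild type alone, so it had to differ. The totals of map7d1b mix the ends of the gene. That of wild-type replicate 3, 12.7 FPKM, came from last exons and the others from first exons. By first exons alone, map7d1b was at 10.7, 12.6 and 6.92 FPKM in wild type and 6.67, 5.39 and 7.49 FPKM in the mutant, which overlap. srfbp1, fabp11a, a fatty acid binding protein gene, and zgc:85936 were called in none of the 6 refits (adjusted p 0.0557 to 0.14).

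SNORD99, annotated as a small nucleolar RNA gene, with events from 16122924 to 16126386, had a large difference that did not pass (5.37, 8.30 and 16.3 FPKM in wild type, 2.73 FPKM in mutant replicate 1, 1.17 FPKM in mutant replicate 3 and no listing in mutant replicate 2, adjusted p = 0.085). Its events include last exons at 16122924 to 16122986 and at 16122924 to 16123717. Whether these values measure the small RNA or a longer transcript under its name was not tested. Of the hoxaa genes 3 were tested and limma called 0 (1 at an unadjusted p under 0.05). Among them, hoxa3a (39.1 ± 0.92 and 40.3 ± 2.1 FPKM, SD, n = 3) and hoxa13a (1.33 ± 0.10 and 1.30 ± 0.23 FPKM) overlapped between the genotypes, and hoxa1a was lower in the mutant without overlap (6.35, 6.60 and 10.4 against 3.98, 4.19 and 5.21 FPKM) but did not pass (adjusted p = 0.136). Its direction turned with the end measured, since its last exons were at 1.59, 0.84 and 3.22 FPKM in wild type and at 3.34, 3.64 and 4.39 FPKM in the mutant (0.81). The sign also turned for hoxa3a with last exons alone (-0.46), and for hoxa13a without wild-type replicate 2 (0.01) or mutant replicate 3 (0.06).

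The authors' deposited table holds their own test of each transcript on the same libraries, so it is no independent support. Of the 617 members with a tested transcript, 261 (42.3%) had at least 1 with an adjusted p under 0.05 in the authors' deposited table, where the share over all genes was 32.2%. From 5 to 10 Mb it was 58 of 88 (65.9%), with 7 of 8 from 6 to 7 Mb and 25 of 34 from 7 to 8 Mb. In the window from 20 to 25 Mb it was 26 of 48 (54.2%), and from 45 to 50 Mb 9 of 43 (20.9%). Of the 35 members called here, the authors' deposited table had tested 34 and 29 of these were under 0.05. The 5 others included slc2a3a (adjusted p = 0.432), znf706 (0.167) and tmem55a (0.968) in the authors' deposited table, which gives no direction by genotype name. Among the uncalled genes between apoa1bp and prcc, the authors' test had sf3b4, lix1l and rfx5 (each adjusted p = 0.000466) and mrpl24 (0.00338) under 0.05. fam63a was not (0.481).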

How the data were processed

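The authors deposited 1 table per library with FPKM for transcript-structure events, per the file headers, and 1 table of their own test with a p-value and adjusted p-value per transcript, also per the file headers. The submitters' processing notes name SAMtools 0.1.18, Cufflinks 2.2.1, HISAT2 2.0.1, DESeq, Trimmomatic 0.30 and HTSeq 0.6.1 and the build GRCz10. Which tool did what, and with which settings, is not given there. The 2 value columns of the second table do not name a genotype and were not used.

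Gene totals were built from first-exon and last-exon events with Python 3.11.15 and pandas 2.3.3. Where a library lacked a gene, 0 was entered. Symbols came from the deposited table. The limma package 3.58.1 (R 4.3.3; trend and robust options on) was fitted to log2(FPKM + 1) of all 15475 genes with at least 1 FPKM in 3 libraries, with genotype as the only term, two-sided, and Benjamini-Hochberg adjustment over all of them at a threshold of 0.05. The procedure was tested on simulated data.

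The chromosome, its windows and the gene lists were chosen with earlier results of these data known. Named were all called members from 5 to 10 Mb, up to 3 called members of smallest p in each other window, listed genes of the complex, S100 and hoxaa groups, the 5 largest differences among members with at least 5 FPKM, and members that varied within a genotype. sf3b4, mrpl24, fam63a, lix1l, rfx5, spi1a, marco, cryaa, tapbpl, vps52, ddx39b, ppp1r1b, the keratin neighbours, genes listed in 1 genotype only and oscp1a and si:ch211-288g17.4 were named after their values were seen. Alternatives covered scaling, filters, pseudocounts, limma options, single event types, a replicate block and leaving out each library. 1 gene that the naming rule takes in is not reported here.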

Additional observations from a re-analysis of the deposited data

How the results depend on the processing

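Quantile normalisation, median-ratio rescaling, no filter, a filter of 5 FPKM, a pseudocount of 0.1 or 0.5, single event types and genes listed in all 6 libraries kept the 4 counts of called members (17 higher and 18 lower on chromosome 19, 5 and 8 of them from 5 to 10 Mb) within 1.5 times. The genes behind the counts were not all the same. With a pseudocount of 0.1, 29 of the 35 were still called, and krt1-19d, fndc5b and ndufs6 were among those lost. With no filter 33 of the 35 were still called, and ndufs6 was again lost. Without trend and robust options 27 of the 35 were still called, and 1 was higher from 5 to 10 Mb. With the replicate number as a block the counts were 3 higher and 7 lower on the chromosome and 0 and 4 from 5 to 10 Mb. Over all 15475 genes the calls fell from 374 to 115 with the block. Over all genes tested, same-numbered libraries did not deviate together (correlations of -0.0274, 0.00274 and 0.00642). These correlations cannot exclude a pairing that touches only some genes. Of the 10 calls with the block, 9 were among the 35. With a difference of at least 1 the counts were 6 and 5 on the chromosome and 0 and 2 from 5 to 10 Mb, and 158 of the 374 calls over all genes were left. Leaving out 1 library gave 4 to 16 higher and 8 to 20 lower on the chromosome, and 0 to 4 higher and 5 to 8 lower from 5 to 10 Mb, with fewer samples in each fit. Over all genes these refits called 133 to 450. Events listed in 1 genotype only numbered 25 of 1281 at a minimum of 0.5 FPKM (1.95%, beside 1.48% of all events). At 2 FPKM they numbered 9 of 1024 (0.879%, beside 0.661% of all events), against 15 in the main setting. From 0 to 5 Mb, 1 of 136 was left at 2 FPKM. With first-exon events alone slc2a3a (-0.65) and col11a2 (3.48) reversed, and grb10a (0.78), col14a1b (-0.34), map7d1b (-0.53), ndufs6 (0.51) and zgc:85936 (-0.59) were no longer called. With last-exon events alone hoxa1a (0.81), hoxa3a (-0.46) and si:dkey-222b8.4 (-0.16) reversed, fndc5b (1.22), znf706 (1.71) and zgc:85936 (-0.65) were no longer called, and hax1 (-3.67) and SNORD99 (-3.27) passed the test. No mutant library listed a last exon of hax1 or SNORD99. Both thus passed the filter of that fit through wild type alone and had to differ. Signs also turned when 1 library was left out for brd2a (-0.38 to 0.01, the latter without mutant replicate 1), slc39a7 (-0.25 to 0.0, without mutant replicate 2) and hoxa13a (-0.08 to 0.06, above 0 without wild-type replicate 2 or mutant replicate 3). The causes were not tested. Read totals were not used here, so what depth limits cannot be stated beyond the spread between libraries.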
